A study of Homo sapiens with 18 samples.

Results

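The response to poly(I:C), a synthetic double-stranded RNA, was followed in EA.hy926 endothelial cells that had been transfected with a non-targeting siRNA (siNT). The comparison set 3 siNT libraries taken 24 h after poly(I:C) against 3 siNT libraries taken at 0 h, so 6 of the 18 libraries of the series entered it, and every gene with a measurable level was read for a rise or a fall. EA.hy926 is a permanent line made by fusing human umbilical vein endothelial cells with the lung epithelial line A549, and a single line stands here for endothelium. The siNT cells received siRNA without a cellular target at 10 nM with Lipofectamine RNAiMAX, were kept in low-serum medium overnight and were lysed 48 h after transfection (the 0 h cells) or received 1 µg/ml poly(I:C) in the medium at that point and were lysed 24 h later. The 24 h cells were therefore also cultured for longer than the 0 h cells, and culture time and poly(I:C) cannot be told apart. For the closing comparison, Mock cells received the transfection reagent without siRNA and siELMO1 cells received siRNA against ELMO1, an adaptor of engulfment and cell motility, with the same times and the same poly(I:C). Replicates are separate biological replicates, and each group held 3.

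Double-stranded RNA is a sign of viral infection. In endosomes it is bound by TLR3, which signals through the adaptor TICAM1 (TRIF), and in the cytosol it is bound by RIG-I (gene RIGI) and MDA5 (IFIH1), which signal through MAVS. Both routes activate interferon regulatory factors, which switch on type I and type III interferon genes, and NF-κB, which switches on genes for chemokines, cytokines and its own inhibitors. Secreted interferon then acts through JAK kinases and a complex of STAT proteins with IRF9 on the interferon-stimulated genes, whose promoters carry interferon-stimulated response elements (ISREs). Endothelial cells line the vessels, and on such signals they display adhesion molecules, chemokines, HLA class I and clotting factors to passing leukocytes.

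The values are the authors' estimated counts per gene, and a level is given in CPM, that is, scaled to 1 M counts with TMM factors. It stands as the mean ± SD over the 3 libraries of a group, or as the 3 values in replicate order. The siNT libraries held 59.9 to 66.0 M counts at 0 h and 53 to 57.4 M at 24 h. Where a library shows 0 counts the true value may reach 3 counts, or 0.0448 to 0.0573 CPM depending on the library. Genes with at least 100 counts in total and at least 1 CPM in some library were tested, 15167 of 62754, with edgeR's quasi-likelihood test on all 18 libraries and Benjamini-Hochberg adjustment over the 15167 genes. Every adjusted p below is from that test unless another tool is named. For the counts of changed genes the adjusted p had to be under 0.05 with more than a 2-fold change, and single genes and members of a list are called by adjusted p alone. With 3 against 3 libraries no permutation test of a single gene could reach 0.05, so no such test is given. In a culture lysed whole, fewer cells that express a gene and less of its RNA per cell cannot be told apart. Intervals and limits cover counting error only. A read pair stands for more than 1 count in these files, so the intervals are too narrow, and folds given as at least a value are against 3 counts and would be smaller against 3 read pairs.

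The libraries carried endothelial RNA at both times. PECAM1, the junction protein CD31, was at 314, 305 and 322 CPM at 0 h and 214, 211 and 266 CPM at 24 h (adjusted p = 0.10), and CDH5, VE-cadherin, at 438 ± 17.0 and 519.7 ± 26.2 CPM. Of 25 endothelial identity genes 22 were tested; CLDN5, EMCN and LYVE1 did not pass the filter, with 0 to 14 counts in a library. Of 16 epithelial genes 8 were tested. Keratins of simple epithelium were unequal: KRT18 was at 486 ± 8.402 CPM at 0 h, and KRT19 did not pass the filter, with at most 29 counts in a library. CDH1, NKX2-1 and SFTPC had 0 counts in all 6 libraries. The leukocyte list of 12 genes had 2 tested members, LYZ and CD68, and the others had at most 19 counts in any of the 6 libraries, apart from CSF1R with 35 to 54.

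Past both thresholds were 978 rises and 450 falls, which is 6.45% and 2.97% of the genes tested. By adjusted p alone 4333 genes were higher and 3828 lower (28.6% and 25.2%), and these shares are the background for the lists below. The 24 h libraries lay wholly above the 0 h libraries for 32.9% of all genes tested and wholly below for 30.8%. Among the genes counted as changed, 941 of the 978 rises and 442 of the 450 falls had libraries that did not overlap. The rises were the larger changes: 376 had a log2 fold change above 2, 219 above 3 and 102 above 5, while 50 falls were below −2, 4 below −3 and 2 below −5. Over all genes tested the median log2 fold change was 0.01.

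The genes that rose were mostly low before poly(I:C). Their median level went from 1.93 to 7.33 CPM, that of the falls from 3.36 to 1.26 CPM. Of the 978 rises 414 were under 1 CPM at 0 h, and 55 had no count at all in the 3 libraries. Among 1878 tested genes under 1 CPM at 0 h 22.0% rose and 4.63% fell, and among 2311 genes at 100 CPM or more 2.51% rose and 1.82% fell. A gene silent at 0 h could be tested only because of its level in other libraries: 276 of the rises passed the filter through 24 h libraries alone and 140 of the falls through 0 h libraries alone, against 586 and 543 of all genes tested. The 978 genes held 2.24 to 2.28% of the counts of all tested genes at 0 h and 8.18, 7.95 and 9.40% in the 3 libraries at 24 h. Replicate 3 at 24 h stood somewhat above the others in the response. Its median log2 ratio to the 0 h mean over the 978 genes, with 0.5 CPM added, was 1.37, against 1.16 and 1.18, and without this library 916 genes were higher.

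**Figure D1:**
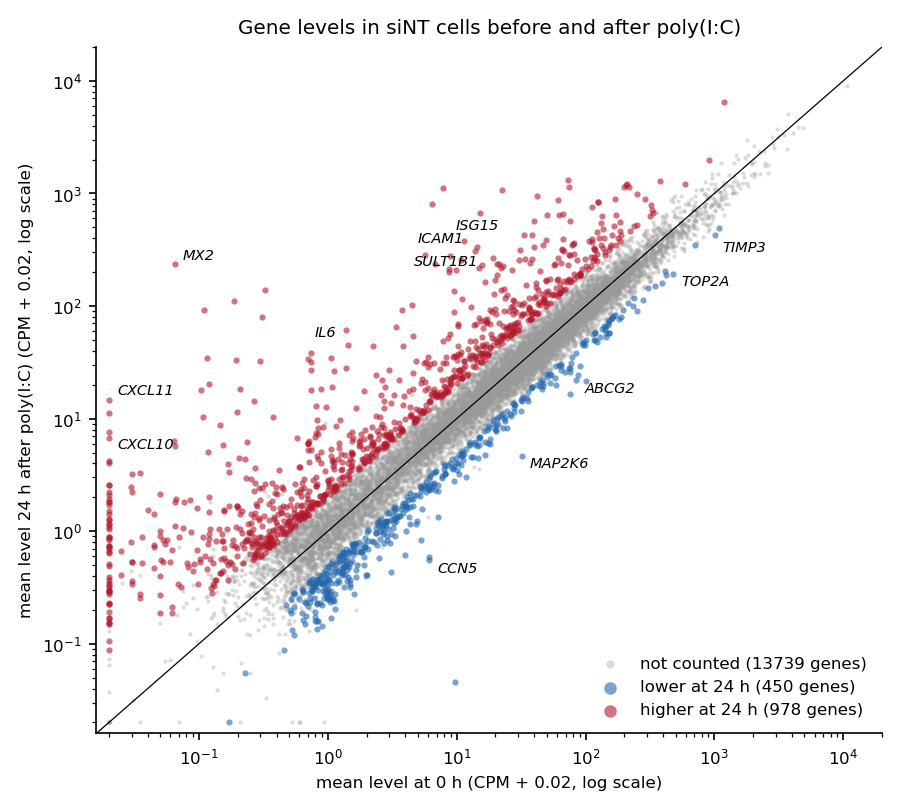
Mean level at 0 h (horizontal axis) against mean level 24 h after poly(I:C) (vertical axis), both in CPM with a small constant added and on log scales, for the 15167 genes tested in siNT cells. The diagonal marks equal levels, the 978 rises and 450 falls are coloured, and the largest rises lie at the left, where genes were under 1 CPM at 0 h.

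By type, 738 of the rises and 255 of the falls were protein-coding genes, and 180 and 59 were long noncoding RNAs. The transcript with the most counts had a median length of 3299 nt and 50.4% GC for protein-coding rises, 3370 nt and 46.2% GC for falls and 3402 nt and 48.1% GC for all protein-coding genes tested. Of the 9130 tested genes that overlap a gene on the opposite strand, 543 rose and 235 fell. The kit keeps the strand, but the sources used here do not say that counting used it, so the levels of these genes are uncertain, and such partners are named below.

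Rises and falls were ranked among genes with a symbol, at least 5 CPM at the higher time and libraries that did not overlap. The largest such rises were interferon-stimulated genes, chemokines and a death ligand. CXCL11 (ENSG00000169248.13, chromosome 4 from 76033682 to 76041415), a chemokine for CXCR3-bearing T cells, had 0 counts at 0 h and was at 12.9, 10.8 and 20.5 CPM at 24 h, at least 319-fold higher than the limit of 3 counts a library. CXCL10 (ENSG00000169245.6, chromosome 4 from 76021118 to 76023497), which acts on the same receptor, had 0 counts at 0 h and 6.95, 6.75 and 9.07 CPM at 24 h, at least 164-fold higher. ART3 overlaps both on the opposite strand. MX2 (ENSG00000183486.14, chromosome 21 from 41361999 to 41409393), a GTPase that blocks viral nuclear entry, was at 0.134, 0 and 0 CPM at 0 h and 204, 202 and 298 CPM at 24 h. The ratio of its counts was 5125, with an exact 95% interval of 2700.0 to 11210.0. For these 3 genes the 2 sets of libraries were far apart, and replicate 3 was the highest at 24 h.

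GBP4 (ENSG00000162654.9, chromosome 1 from 89181144 to 89198942), an interferon-induced guanylate-binding protein, held 0, 0.181 and 0.0897 CPM before poly(I:C) and 77.1, 69.0 and 131 CPM after it (log2 fold change 10.02, SE 0.45, adjusted p = 4.7e-12). RSAD2 (ENSG00000134321.13, chromosome 2 from 6865557 to 6898239), viperin, an enzyme that makes a chain-terminating nucleotide, went from 0.254, 0.131 and 0.120 CPM to 96.2, 90.1 and 143 CPM (log2 fold change 9.32, SE 0.30, adjusted p = 4.7e-14); CMPK2 overlaps it on the opposite strand. Every 24 h library lay above every 0 h library for both genes, which the ranking rule required. XAF1 (ENSG00000132530.17, chromosome 17 from 6755447 to 6775647), an interferon-stimulated antagonist of the apoptosis inhibitor XIAP, was at 0.910, 0 and 0 CPM before and 127, 119.7 and 173 CPM after (log2 fold change 8.80, SE 0.41, adjusted p = 8.0e-12). TNFSF10 (ENSG00000121858.11, chromosome 3 from 172505508 to 172523475) encodes TRAIL, a ligand of death receptors, and its libraries held 0.119, 0 and 0.164 CPM at 0 h and 27.7, 22.7 and 52.7 CPM at 24 h (log2 fold change 8.43, SE 0.55, adjusted p = 3.3e-09). Its 0 h libraries reached 0 and all 3 at 24 h lay far above them.

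BST2 (ENSG00000130303.14, chromosome 19 from 17402939 to 17405630), tetherin, which holds budding virions at the cell surface, was at 0.164, 0.443 and 0.254 CPM and then 67.4, 63.7 and 107 CPM (log2 fold change 8.12, SE 0.30, adjusted p = 2.6e-13). GBP5 (ENSG00000154451.15, chromosome 1 from 89256189 to 89272860) was at 0.0448, 0.148 and 0.105 CPM and then 18.6, 16.3 and 25.9 CPM (log2 fold change 7.67, SE 0.36, adjusted p = 6.6e-11). CCL5 (ENSG00000271503.7, chromosome 17 from 35871491 to 35880793), RANTES, a chemokine for T cells and monocytes, rose from 0.209, 0 and 0.314 CPM to 26.7, 27.3 and 46.2 CPM (log2 fold change 7.52, SE 0.45, adjusted p = 1.9e-10). In all 3 genes replicate 3 held the highest 24 h value. GRIP2 (ENSG00000144596.13, chromosome 3 from 14489107 to 14556075), a scaffold protein best known from synapses, was at 0, 0.131 and 0.120 CPM at 0 h and 13.2, 14.6 and 25.9 CPM at 24 h (log2 fold change 7.73, SE 0.46, adjusted p = 2.1e-10), and SLC6A6 lies on the opposite strand. USP41 had 0 counts at 0 h and 6.18, 6.00 and 7.92 CPM at 24 h, at least 145-fold higher. It shares sequence with USP18, so how reads were divided between them is uncertain, and its call was lost under limma-voom (adjusted p = 0.11).

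**Figure D2:**
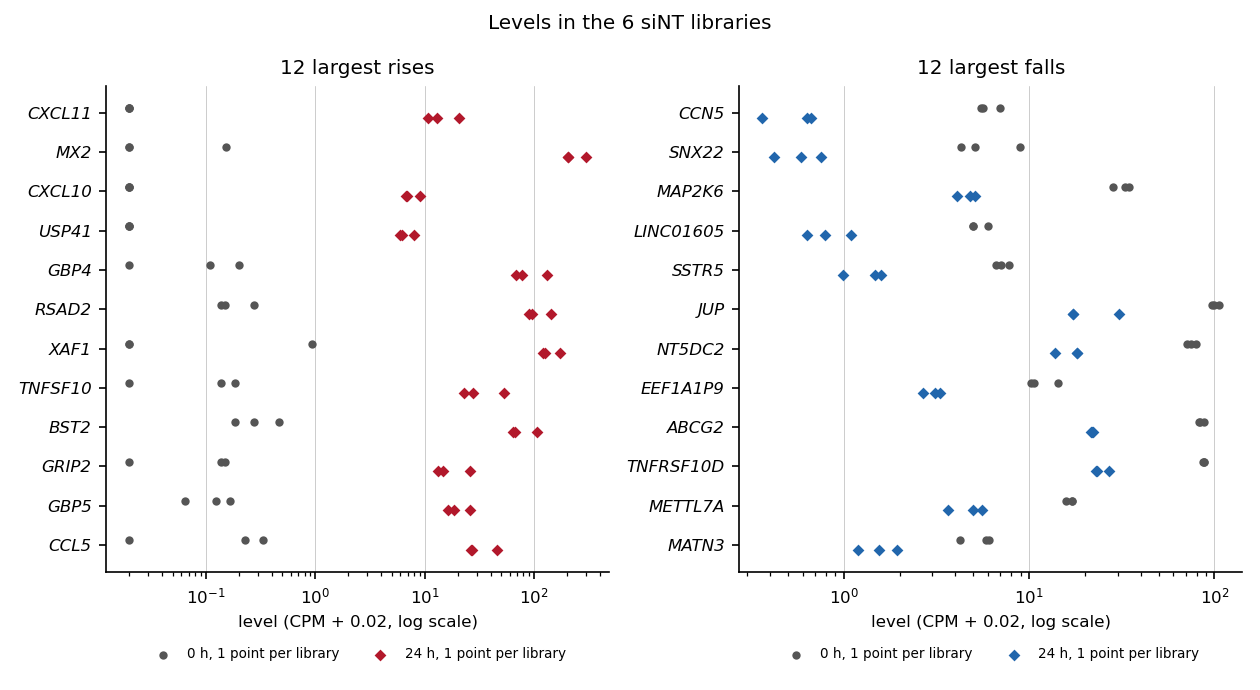
Level in each of the 6 siNT libraries (horizontal axis, CPM with a small constant added so that 0 can be drawn, log scale) for the 12 largest rises and the 12 largest falls, 1 point per library, 0 h and 24 h in separate colours. The 24 h points of CXCL11, MX2 and GBP4 lie far above their 0 h points, and those of CCN5 and JUP lie below.

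The promoters of these genes were read to see whether genes that rose share sequence. RefSeq windows of 250 bases before to 50 after a start site were matched for 10004 of the 12386 protein-coding genes tested. The match was by gene name, chromosome and strand, with the windows of a whole chromosome left out. For 9414 of the matched genes the window's start site lay within 500 bases of the start of the transcript with the most counts. The windows shown were picked by hand, and each holds an ISRE, with the shares over all windows given below. They belong to a leading chemokine, 4 interferon-stimulated genes and the endosomal receptor. All are printed 5′ to 3′ on the strand of the gene in GRCh38.p14, with matches to the ISRE (GAAANNGAAA, either strand) and to the κB motif of NF-κB (by its standard consensus, either strand) in capitals, and neighbouring matches may run together.
CXCL10 (chr4:76023448-76023747, minus strand): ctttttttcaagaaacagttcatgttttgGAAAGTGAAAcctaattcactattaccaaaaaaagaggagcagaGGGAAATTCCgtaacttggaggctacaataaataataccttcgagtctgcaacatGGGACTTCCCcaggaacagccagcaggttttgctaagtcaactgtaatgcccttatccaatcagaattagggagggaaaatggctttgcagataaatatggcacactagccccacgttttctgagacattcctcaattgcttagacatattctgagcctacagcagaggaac
GBP4 (chr1:89198893-89199192, minus strand): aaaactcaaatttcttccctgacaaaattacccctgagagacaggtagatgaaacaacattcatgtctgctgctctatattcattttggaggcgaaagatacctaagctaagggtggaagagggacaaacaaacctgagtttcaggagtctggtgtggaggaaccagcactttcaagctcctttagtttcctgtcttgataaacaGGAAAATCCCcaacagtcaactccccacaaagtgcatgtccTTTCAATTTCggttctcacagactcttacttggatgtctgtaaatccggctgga
BST2 (chr19:17405581-17405880, minus strand): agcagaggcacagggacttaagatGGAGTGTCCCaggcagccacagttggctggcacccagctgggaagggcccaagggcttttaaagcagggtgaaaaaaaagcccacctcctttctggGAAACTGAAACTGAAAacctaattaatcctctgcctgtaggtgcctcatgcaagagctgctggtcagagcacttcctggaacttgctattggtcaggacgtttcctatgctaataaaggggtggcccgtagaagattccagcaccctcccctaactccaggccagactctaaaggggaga
ISG15 (chr1:1013247-1013546, plus strand): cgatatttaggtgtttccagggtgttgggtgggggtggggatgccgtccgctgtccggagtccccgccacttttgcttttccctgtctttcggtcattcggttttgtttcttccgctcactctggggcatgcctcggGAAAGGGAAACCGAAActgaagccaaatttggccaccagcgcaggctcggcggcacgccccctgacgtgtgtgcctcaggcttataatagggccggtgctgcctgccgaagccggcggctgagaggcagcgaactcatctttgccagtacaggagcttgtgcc
IFIT1 (chr10:89392373-89392672, plus strand): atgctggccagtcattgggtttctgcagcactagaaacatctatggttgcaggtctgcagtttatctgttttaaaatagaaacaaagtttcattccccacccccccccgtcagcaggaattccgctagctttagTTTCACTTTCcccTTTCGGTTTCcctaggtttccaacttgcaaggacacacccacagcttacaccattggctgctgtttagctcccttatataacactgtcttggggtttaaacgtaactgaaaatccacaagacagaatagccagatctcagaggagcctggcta
TLR3 (chr4:186068906-186069205, plus strand): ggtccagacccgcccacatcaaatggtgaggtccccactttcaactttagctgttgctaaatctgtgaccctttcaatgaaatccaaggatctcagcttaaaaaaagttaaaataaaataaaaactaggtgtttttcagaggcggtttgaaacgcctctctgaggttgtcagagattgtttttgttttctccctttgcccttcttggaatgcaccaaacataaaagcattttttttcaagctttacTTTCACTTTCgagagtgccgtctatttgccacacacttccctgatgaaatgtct

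CXCL10, GBP4 and BST2 held both motifs in these windows and ISG15, IFIT1 and TLR3 only the ISRE. Over all windows the ISRE was found in 298 of 10004 (2.98%). It was found in 92 of 569 promoters of genes that rose (16.2%), in 38 of 131 of those with a log2 fold change over 3 (29.0%) and in 1 of 188 of genes that fell (0.532%). Among the antiviral effectors described below it was in 27 of 40 windows (67.5%), and among HLA class I and antigen processing genes in 12 of 20 (60.0%). The κB motif was in 6.60% of all windows, in 13.4% of those of genes that rose and in 4.79% of those of genes that fell. It was in 13 of 24 windows of NF-κB subunits and inhibitors (54.2%) and in 5 of 6 of CXC chemokines (83.3%). The AP-1 heptamer TGACTCA was in 3.08% of all, 7.03% of risen and 2.13% of fallen genes, and the STAT motif TTCNNNGAA in 6.07%, 12.3% and 5.32%. The ISRE and κB matches overlapped each other in 0 windows and the ISRE and STAT matches in 4. A match is a run of letters and was not tested for binding.

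**Figure D3:**
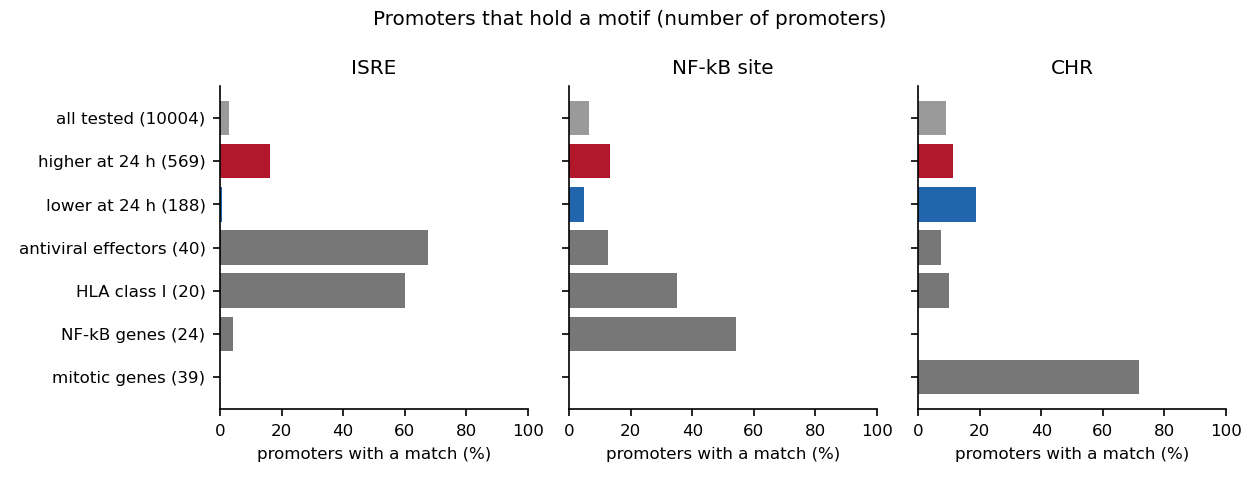
Share of promoter windows (percent, horizontal axis) that hold each motif, for all tested protein-coding genes, genes that rose, genes that fell and gene lists. The ISRE bar is 67.5% for antiviral effectors and 2.98% for all genes, and the bar of the motif TTTGAA (panel CHR) is 71.8% for mitotic genes and 9.18% for all genes.

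The sensors of double-stranded RNA rose. Of 14 sensors and adaptors, all tested, 13 rose and 0 fell, with a median log2 fold change of 1.62. Among the 14, 1 was tested through 24 h libraries alone. TLR3 (ENSG00000164342.14, chromosome 4 from 186068911 to 186088073) went from 21.8, 26.4 and 25.9 CPM to 115, 110.1 and 149 CPM (log2 fold change 2.34, SE 0.11, adjusted p = 1.3e-11), and its adaptor TICAM1 from 24.4 ± 1.88 to 52.1 ± 1.81 CPM. The 0 h libraries of TLR3 lay close together and all 24 h libraries above them. RIGI rose from 50.2 ± 1.44 to 638 ± 133 CPM (log2 fold change 3.67, SE 0.12, adjusted p = 7.3e-14), and IFIH1 from 8.77 ± 0.485 to 211 ± 34.7 CPM (log2 fold change 4.59, SE 0.12, adjusted p = 2.1e-15). DHX58, LGP2, a helicase that tunes both, rose from 1.03 ± 0.0985 to 34.9 ± 8.22 CPM (log2 fold change 5.08, SE 0.18, adjusted p = 2.0e-13). The kinase PKR (EIF2AK2) was at 185 ± 4.99 CPM and then 558 ± 18.6 CPM, and the RNA editing enzyme ADAR at 289 ± 12.4 and 901 ± 62.5 CPM. ZBP1, a sensor of Z-form RNA that can start necroptosis, had 0 counts at 0 h and 1.55, 1.39 and 3.30 CPM at 24 h, at least 44.9-fold higher. MAVS, the adaptor of RIG-I and MDA5, was at 271 ± 12.4 and 245 ± 17.4 CPM and did not pass the test (adjusted p = 0.065).

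Interferon transcripts were present at 24 h and at low levels. IFNB1 (ENSG00000171855.7, chromosome 9 from 21077104 to 21077942) had 0 counts at 0 h and 1.70, 1.43 and 1.91 CPM at 24 h, at least 36.2-fold higher. IFNL1, a type III interferon, had 0 counts at 0 h and 0.458, 0.678 and 0.769 CPM at 24 h, at least 13.7-fold higher. IFNL2 and IFNL3 did not pass the filter, with at most 14 counts in a library, and IFNLR1, the subunit of the type III receptor, had 0 counts in all 6 libraries. Of 8 tested interferon and receptor genes 4 rose and 0 fell, with a median log2 fold change of 0.61. Among the 8, 2 were tested through 24 h libraries alone, so they could enter only as rises. The receptor subunit IFNAR2 rose from 24.8 ± 1.19 to 37.8 ± 0.416 CPM (log2 fold change 0.61, SE 0.09, adjusted p = 2.5e-05) and IFNGR2 from 36.0 ± 0.620 to 57.6 ± 7.35 CPM, while IFNAR1 was at 97.9 ± 2.14 and 100.1 ± 2.69 CPM (adjusted p = 0.69).

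Among 6 tested interferon regulatory factors 5 rose and 0 fell (median 1.48). IRF7, the factor that amplifies interferon production, was at 8.03, 9.69 and 8.37 CPM at 0 h and 189, 183 and 231 CPM at 24 h (log2 fold change 4.53, SE 0.11, adjusted p = 5.6e-16). IRF9, the DNA-binding part of the interferon-activated complex, rose from 12.8 ± 0.603 to 97.7 ± 19.2 CPM (log2 fold change 2.93, SE 0.17, adjusted p = 1.6e-10), IRF1 from 56.6 ± 0.802 to 229 ± 37.6 CPM and IRF2 from 33.2 ± 2.12 to 63.7 ± 5.59 CPM. IRF3, the factor activated directly by the sensors, rose less, with a log2 fold change of 0.49 (adjusted p = 1.3e-04).

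The JAK, STAT and SOCS list was split, with 9 of 20 tested members up, 6 down and a median of 0.23. STAT2, a part of the interferon-activated complex, rose from 49.7 ± 1.94 to 386 ± 50.4 CPM (log2 fold change 2.96, SE 0.08, adjusted p = 6.1e-15) and STAT5A from 11.0 ± 0.254 to 23.1 ± 3.67 CPM. The kinase JAK1 was at 218 ± 6.17 and 214 ± 1.36 CPM (adjusted p = 0.59) and JAK2 rose with a log2 fold change of 1.00. USP18, which shuts off the interferon receptor and removes ISG15, rose from 9.51 ± 0.855 to 136 ± 17.9 CPM (log2 fold change 3.84, SE 0.09, adjusted p = 4.5e-16). The inhibitors moved unequally: SOCS1 rose with a log2 fold change of 0.40, and SOCS2, SOCS3, SOCS4, SOCS5, SOCS6 and SOCS7 fell, from −0.62 for SOCS5 to −0.15 for SOCS3.

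Antiviral effectors, the proteins that block viral entry, replication or release, rose almost without exception. Of 59 listed genes 56 were tested, and 54 rose, 51 of them more than 2-fold, with a median log2 fold change of 2.90. OAS2, which makes the 2-5A that activates RNase L, rose from 7.79 ± 1.01 to 1122 ± 181 CPM (log2 fold change 7.17, SE 0.13, adjusted p = 5.6e-17). IFIT1, which binds foreign RNA caps, was at 6.21, 5.96 and 7.10 CPM and then 753, 704 and 951 CPM (log2 fold change 6.96, SE 0.15, adjusted p = 2.1e-16). The libraries of the 2 times were far apart. MX1, the relative of MX2, was far less abundant, at 0.686 ± 0.199 and then 5.99 ± 0.367 CPM (log2 fold change 3.12, SE 0.24, adjusted p = 5.6e-09). APOBEC3B, a cytidine deaminase, fell with a log2 fold change of −0.25, and APOBEC3C was at 163 ± 1.36 and 157 ± 6.43 CPM (adjusted p = 0.52). CMPK2, EPSTI1 and APOBEC3A did not pass the filter, with at most 9, 8 and 58 counts in a library. Of the 56 tested genes 4 passed the filter through 24 h libraries alone. The pathway that attaches ISG15, a ubiquitin-like modifier, to proteins had 8 of 9 members up and 0 down (median 3.08). ISG15 rose from 11.4 ± 1.46 to 381 ± 65.4 CPM (log2 fold change 5.06, SE 0.15, adjusted p = 2.1e-14), its activating enzyme UBA7 from 16.5 ± 0.958 to 74.8 ± 15.5 CPM, its conjugating enzyme UBE2L6 from 39.7 ± 1.74 to 337 ± 54.8 CPM and its ligase HERC5 from 1.36 ± 0.0437 to 61.8 ± 16.7 CPM (log2 fold change 5.50, SE 0.18, adjusted p = 5.1e-14).

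All 6 tested guanylate-binding proteins rose (median 4.70), with 3 of them tested only because of their 24 h level. GBP1, the most abundant by CPM, rose from 8.84 ± 0.241 to 281 ± 63.2 CPM (log2 fold change 4.99, SE 0.14, adjusted p = 5.4e-15). GBP7 was at 0, 0.0493 and 0.0598 and then 0.649, 0.571 and 1.21 CPM, a ratio of counts of 22.8, with an exact 95% interval of 10.8 to 57.7. GBP2 lies beside GBP7 on the same strand, and reads of this family can be shared.

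The chemokines that were tested rose. All 7 tested CXC genes rose, with a median of 3.36, and 4 of the 7 were tested because of their 24 h level alone. CXCL8 (ENSG00000169429.12, chromosome 4 from 73740519 to 73743716), the neutrophil chemokine IL-8, went from 20.9, 19.7 and 21.5 CPM to 259.7, 243 and 207 CPM (log2 fold change 3.52, SE 0.11, adjusted p = 4.6e-14). CXCL1 was at 0.657, 0.805 and 0.897 CPM at 0 h and 7.27, 6.84 and 7.99 CPM at 24 h (log2 fold change 3.23, SE 0.27, adjusted p = 1.9e-08), and CXCL2 at 2.63, 2.40 and 2.06 and 25.6, 21.7 and 25.6 CPM (log2 fold change 3.36, SE 0.14, adjusted p = 2.4e-12). For each of these 3 neutrophil chemokines all 24 h libraries lay above all 0 h libraries. CXCL5, CXCL6, CXCL9, CXCL12, CXCL14 and CX3CL1 did not pass the filter, with at most 6 counts in a library. The 5 tested CC chemokines all rose (median 6.07), 4 of them through 24 h libraries alone. CCL2, the monocyte chemokine MCP-1, was at 22.8, 24.9 and 22.5 CPM and then 86.3, 82.0 and 105 CPM (log2 fold change 1.96, SE 0.13, adjusted p = 6.2e-10). CCL20 rose from 0.867 ± 0.0528 to 18.2 ± 1.23 CPM (log2 fold change 4.38, SE 0.21, adjusted p = 9.1e-12) and CCL3 from 0.126 ± 0.112 to 8.69 ± 0.619 CPM (log2 fold change 6.11, SE 0.58, adjusted p = 9.5e-08). CCL4 was at 0, 0 and 0.0598 and then 1.18, 1.89 and 1.45 CPM, a ratio of counts of 74.0, with an exact 95% interval of 28.6 to 274. The other 7 CC genes did not pass the filter, with at most 18 counts in a library apart from CCL26, which held 28, 47 and 26 counts at 0 h and 0, 16 and 12 counts at 24 h.

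Of 23 tested cytokines and colony-stimulating factors 16 rose and 0 fell, with a median of 2.05, and 8 of the 23 were tested through 24 h libraries alone. IL6 (ENSG00000136244.12, chromosome 7 from 22725884 to 22732002) rose from 1.84, 0.772 and 1.66 CPM to 44.3, 47.1 and 42.8 CPM (log2 fold change 4.96, SE 0.19, adjusted p = 5.2e-13). IL1B (ENSG00000125538.12, chromosome 2 from 112829751 to 112836816), which needs cleavage by caspase-1 to act, rose from 10.2, 10.1 and 9.58 CPM to 227, 229.9 and 171 CPM (log2 fold change 4.39, SE 0.10, adjusted p = 3.5e-16). The libraries of both genes were far apart between the times. IL32 rose from 0.727 ± 0.138 to 38.5 ± 0.643 CPM (log2 fold change 5.73, SE 0.14, adjusted p = 1.2e-15) and TNFSF13B, the B cell survival factor BAFF, from 0.176 ± 0.0748 to 11.4 ± 4.79 CPM (log2 fold change 6.01, SE 0.35, adjusted p = 5.6e-09). TNF had 0 counts at 0 h and 0.210, 0 and 0.402 CPM at 24 h, at least 4.41-fold higher, and its call was lost under limma-voom (adjusted p = 0.12). IL18, the other substrate of caspase-1, was at 44.7 ± 2.45 and 40.0 ± 5.03 CPM (adjusted p = 0.18).

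Of 28 NF-κB subunits and feedback inhibitors 24 rose and 1 fell, with a median of 0.89. Among the 28, 2 were tested through 24 h libraries alone. Among the subunits those of the noncanonical route rose most: RELB from 4.59 ± 0.402 to 54.3 ± 5.06 CPM (log2 fold change 3.56, SE 0.08, adjusted p = 2.7e-16) and NFKB2 from 23.2 ± 2.05 to 143 ± 6.35 CPM (log2 fold change 2.63, SE 0.08, adjusted p = 9.7e-15), against log2 fold changes of 0.68 for RELA and 0.82 for NFKB1. The inhibitor NFKBIA rose from 82.0 ± 0.767 to 363 ± 24.5 CPM and the ubiquitin-editing inhibitor TNFAIP3 (A20) from 30.9 ± 2.24 to 316 ± 13.0 CPM (log2 fold change 3.35, SE 0.08, adjusted p = 9.5e-16). BIRC3, an inhibitor of apoptosis that is also a ubiquitin ligase of the TNF receptor complex, rose from 3.30, 4.68 and 3.32 CPM to 90.5, 85.7 and 103 CPM (log2 fold change 4.63, SE 0.14, adjusted p = 1.1e-14). TRAF1 rose from 4.47 ± 0.461 to 102 ± 13.8 CPM (log2 fold change 4.51, SE 0.15, adjusted p = 5.8e-14), TNIP3 from 0.722 ± 0.0679 to 18.0 ± 1.16 CPM and MAP3K8 from 0.0548 ± 0.0480 to 1.06 ± 0.474 CPM. The deubiquitinase OTULIN was the member that fell (−0.35), and the kinases CHUK and IKBKB did not pass the test (adjusted p = 0.053 and 0.55).

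Genes that load and display peptides on HLA class I rose in 22 of 24 cases and fell in 0, with a median of 1.74. Among the 24, 1 was tested through 24 h libraries alone. HLA-B rose from 14.3 ± 1.25 to 333 ± 91.1 CPM (log2 fold change 4.55, SE 0.19, adjusted p = 1.2e-12), HLA-C from 38.4 ± 0.313 to 260.0 ± 60.0 CPM and HLA-F from 1.06 ± 0.193 to 19.2 ± 5.50 CPM. The HLA genes resemble each other, so reads can be shared among them. TAP1, the peptide pump, rose from 21.4 ± 1.01 to 236 ± 36.2 CPM (log2 fold change 3.46, SE 0.10, adjusted p = 2.0e-14), the immunoproteasome subunit PSMB9 from 10.2 ± 0.538 to 68.9 ± 12.6 CPM, and NLRC5, the factor that drives class I genes, from 27.2 ± 1.58 to 99.2 ± 20.2 CPM. B2M, the light chain, rose from 379 ± 12.2 to 1296 ± 185 CPM (log2 fold change 1.77, SE 0.09, adjusted p = 3.9e-11). CD274, the checkpoint ligand PD-L1, rose from 8.86 ± 1.12 to 56.1 ± 7.52 CPM. PDIA3 and MICA did not pass the test.

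Death receptor genes and their control moved in both directions. Of 24 tested, 15 rose and 7 fell (median 0.41), and 1 of the 24 was tested through 24 h libraries alone. TRAIL's signalling receptors TNFRSF10A and TNFRSF10B rose with log2 fold changes of 0.67 and 0.35. TNFRSF10D (ENSG00000173530.6, chromosome 8 from 23135588 to 23164027), a decoy receptor for TRAIL that lacks a complete death domain, fell from 88.0, 87.7 and 87.1 CPM to 23.2, 27.1 and 22.9 CPM (log2 fold change −1.84, SE 0.08, adjusted p = 5.8e-12). All its 24 h libraries lay far below the lowest 0 h library. CASP8, the initiator caspase, rose from 82.2 ± 1.86 to 111 ± 9.89 CPM (log2 fold change 0.43, SE 0.06, adjusted p = 1.4e-05), while its inhibitor CFLAR (c-FLIP) rose from 26.9, 29.5 and 27.8 CPM to 108, 99.0 and 128 CPM (log2 fold change 1.99, SE 0.11, adjusted p = 6.4e-11). MLKL, the pore former of necroptosis, rose from 60.3 ± 1.26 to 169 ± 13.7 CPM, and RIPK3, the kinase that activates it, had at most 6 counts in a library.

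Inflammasome and pyroptosis genes rose in 11 of 13 tested cases and fell in 0 (median 0.83). Among the 13, 1 was tested through 24 h libraries alone. CASP1 rose from 18.8 ± 1.05 to 89.4 ± 12.5 CPM (log2 fold change 2.25, SE 0.08, adjusted p = 2.0e-13), NLRP3 from 6.24 ± 0.643 to 30.5 ± 0.558 CPM (log2 fold change 2.29, SE 0.12, adjusted p = 4.5e-11) and GSDMC from 15.2 ± 0.463 to 36.3 ± 1.07 CPM, while the pore former GSDMD rose with a log2 fold change of 0.95. AIM2, a sensor of cytosolic DNA, was at 0.0895, 0 and 0.0448 and then 5.04, 3.69 and 8.29 CPM, a ratio of counts of 124, with an exact 95% interval of 65.0 to 272. CADM3 overlaps it on the opposite strand. Of 18 tested BCL2 family genes 9 rose and 4 fell (median 0.19), on both sides of the balance. The survival genes BCL2A1, from 0.953 ± 0.269 to 12.6 ± 1.56 CPM (log2 fold change 3.72, SE 0.21, adjusted p = 1.0e-10), and BCL2L1 (BCL-xL), from 114 ± 1.02 to 251 ± 2.00 CPM, rose, as did BCL2L13, a receptor of mitophagy, from 33.0 ± 0.661 to 84.2 ± 6.05 CPM, and so did the pro-apoptotic BH3-only genes PMAIP1 (NOXA), from 44.1 ± 1.49 to 205 ± 26.7 CPM (log2 fold change 2.22, SE 0.11, adjusted p = 1.3e-11), and BBC3 (PUMA), from 16.0 ± 0.366 to 35.3 ± 4.98 CPM. BCL2L11 (BIM) fell with a log2 fold change of −0.33, and the effectors BAX and BAK1 did not pass the test (adjusted p = 0.5 and 0.22).

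Of the adhesion molecules that hold leukocytes on endothelium, ICAM1 alone rose more than 4-fold. It was at 14.0, 12.9 and 15.0 CPM at 0 h and 288, 303 and 326 CPM at 24 h (log2 fold change 4.45, SE 0.08, adjusted p = 4.4e-17). CD47, a signal against phagocytosis, rose from 186 ± 2.45 to 381 ± 39.7 CPM (log2 fold change 1.03, SE 0.07, adjusted p = 6.1e-10), and ICAM2 and CD44 rose with log2 fold changes of 0.44 and 0.45. VCAM1 and SELE, 2 classical cytokine-induced adhesion molecules, did not pass the filter, with 11 counts at most in a library. Over the list 5 of 12 tested genes rose and 0 fell (median 0.10).

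Endothelial identity genes moved little: 9 of 22 rose and 5 fell, with 1 rise above 2-fold and a median of 0.11. TEK, the angiopoietin receptor TIE2, rose from 47.5 ± 5.42 to 109 ± 9.67 CPM (log2 fold change 1.20, SE 0.08, adjusted p = 1.1e-09). KDR, the main VEGF receptor, rose from 7.03 ± 1.18 to 12.0 ± 0.423 CPM (log2 fold change 0.78, SE 0.29, adjusted p = 0.03), a call lost under limma-voom (adjusted p = 0.057) and without any 1 of 5 of the 6 siNT libraries (adjusted p from 0.052 to 0.098). The secreted EGFL7 fell from 311 ± 2.84 to 183 ± 18.1 CPM (log2 fold change −0.76, SE 0.09, adjusted p = 2.5e-06) and the transcription factor SOX18 from 7.04 ± 0.912 to 4.33 ± 0.337 CPM (log2 fold change −0.70, SE 0.14, adjusted p = 3.3e-04). THBD, the anticoagulant thrombomodulin, was at 197 ± 2.93 and 197 ± 30.2 CPM (adjusted p = 1).

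Clotting and fibrinolysis genes rose in 10 of 22 tested cases and fell in 6 (median 0.23). SERPINB2, an inhibitor of plasminogen activators, rose from 170.4 ± 10.3 to 897 ± 85.9 CPM (log2 fold change 2.40, SE 0.08, adjusted p = 1.1e-13), and the activators rose as well: PLAT (tPA) from 138 ± 2.42 to 402 ± 43.4 CPM and PLAU (uPA) with a log2 fold change of 0.88. The urokinase receptor PLAUR rose from 85.4 ± 2.94 to 257 ± 6.17 CPM (log2 fold change 1.59, SE 0.05, adjusted p = 2.4e-14) and TFPI2 from 2.75 ± 0.490 to 19.0 ± 1.18 CPM (log2 fold change 2.78, SE 0.14, adjusted p = 2.4e-11). Tissue factor, F3, the starter of clotting, was low, at 0.704 ± 0.0176 and then 1.67 ± 0.403 CPM (adjusted p = 2.9e-05). Complement genes rose in 7 of 14 tested cases and fell in 1 (median 0.56), and 6 of the 14 were tested through 24 h libraries alone. The central component C3 rose from 0.821, 0.887 and 0.463 CPM to 32.0, 31.7 and 32.5 CPM (log2 fold change 5.47, SE 0.15, adjusted p = 6.1e-15), the alternative pathway protease CFB from 0.187 ± 0.218 to 18.4 ± 5.11 CPM (log2 fold change 6.66, SE 0.42, adjusted p = 4.3e-10), and the classical pathway proteases C1S and C1R from 0.352 ± 0.0930 to 10.3 ± 3.12 CPM and from 0.558 ± 0.0448 to 6.69 ± 2.40 CPM.

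Of 18 tested enzymes of inflammatory metabolism 14 rose and 2 fell (median 1.34), and 2 of the 18 were tested through 24 h libraries alone. SOD2, the mitochondrial superoxide dismutase, rose from 73.1, 78.7 and 71.1 CPM to 1161, 1069.6 and 1190.4 CPM (log2 fold change 3.94, SE 0.08, adjusted p = 1.8e-16). IL4I1, an amino acid oxidase, rose from 0.679 ± 0.356 to 33.8 ± 9.53 CPM (log2 fold change 5.65, SE 0.27, adjusted p = 1.1e-11). IDO1, which breaks down tryptophan, had 0 counts at 0 h and 2.90, 1.62 and 3.11 CPM at 24 h, at least 55.0-fold higher. ACOD1, which makes itaconate, was at 0, 0 and 0.0448 and then 2.94, 3.25 and 3.62 CPM, a ratio of counts of 214, with an exact 95% interval of 72.7 to 1039. ARG2 fell with a log2 fold change of −1.36.

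AP-1 and other early transcription factors rose in 13 of 20 tested cases and fell in 1 (median 0.59), with KLF4 from 10.7 ± 0.905 to 36.9 ± 10.5 CPM (log2 fold change 1.79, SE 0.18, adjusted p = 1.4e-07), ATF3 from 7.36 ± 0.405 to 27.5 ± 0.896 CPM (log2 fold change 1.90, SE 0.09, adjusted p = 7.2e-12), EGR1 from 2.38 ± 0.372 to 7.69 ± 1.49 CPM and JUNB from 36.6 ± 1.20 to 117 ± 3.29 CPM. JUN and MYC did not pass the test (adjusted p = 0.059 and 0.79). Genes of the ATF4 and amino acid stress response rose in 14 of 29 cases and fell in 4 (median 0.32). CEBPB rose from 68.5 ± 1.96 to 167 ± 18.6 CPM, PPP1R15A (GADD34), the phosphatase subunit that restores translation, from 63.3 ± 1.36 to 130.0 ± 14.5 CPM and SESN2 from 32.5 ± 1.11 to 59.9 ± 5.77 CPM, while ASNS, a usual ATF4 target, was at 29.6 ± 1.52 and 24.8 ± 2.20 CPM and did not pass the test (adjusted p = 0.0503). Of 27 p53 target genes 15 rose and 6 fell (median 0.25): CDKN1A (p21) and MDM2 rose with log2 fold changes of 0.52 and 0.43, SUSD6 with 1.35 and XPC with 1.06, and ZMAT3 fell from 145 ± 2.19 to 53.03 ± 6.46 CPM (log2 fold change −1.45, SE 0.07, adjusted p = 6.0e-12).

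**Figure D4:**
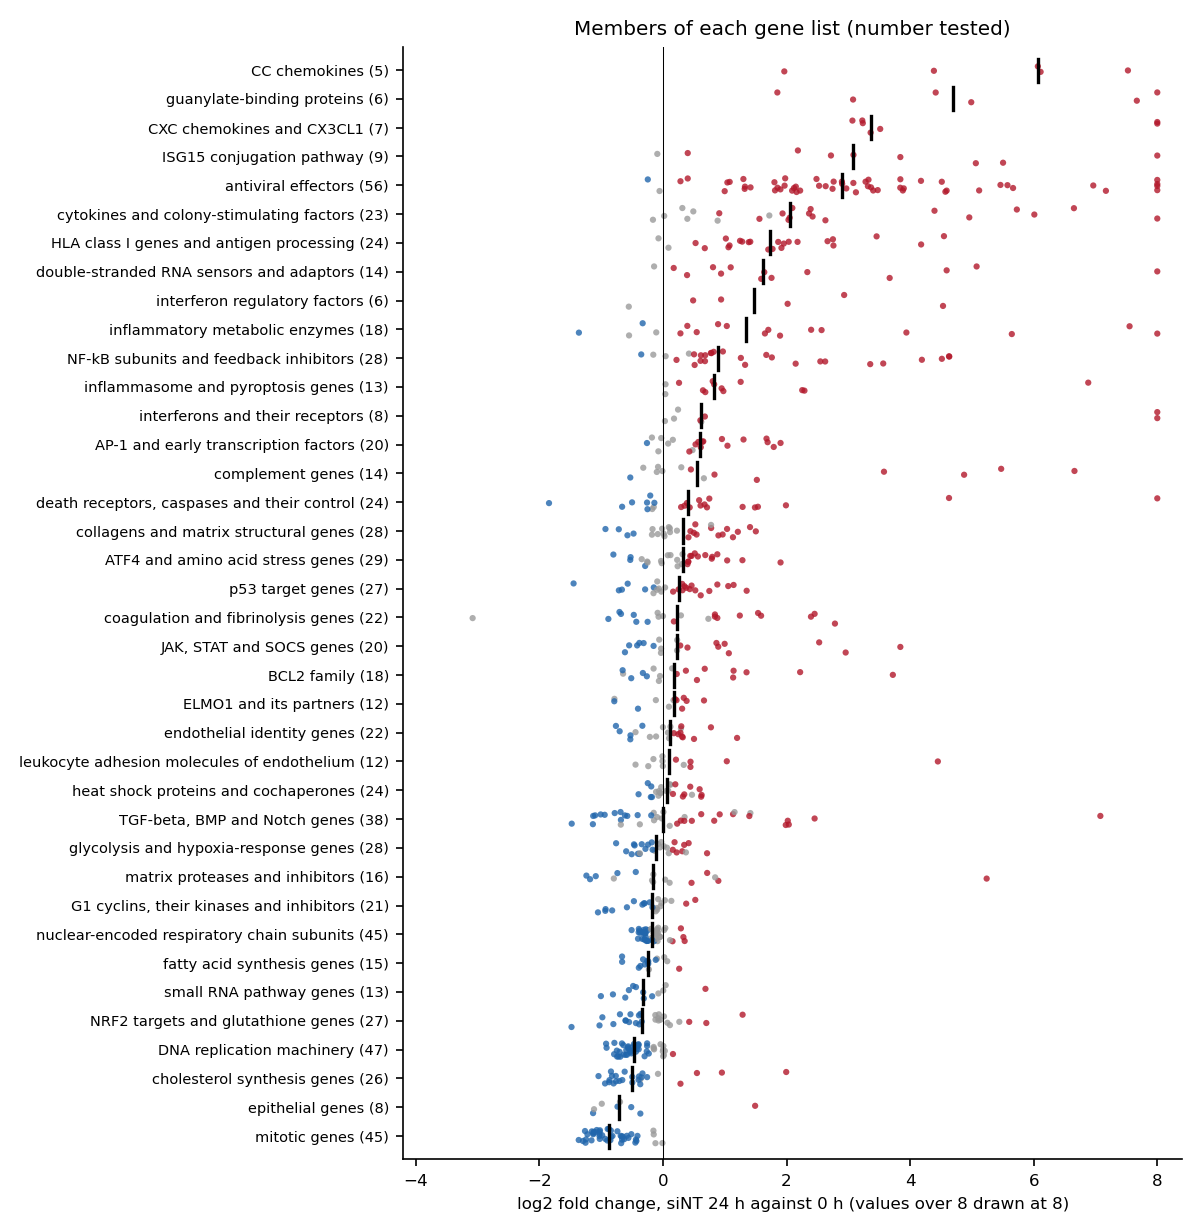
Fitted log2 fold change from 0 h to 24 h (horizontal axis) of every tested member of each gene list, in red or blue where it rose or fell by adjusted p and in grey otherwise, with the list median as a black bar, a vertical line at 0 and values over 8 drawn at 8. Antiviral effectors, guanylate-binding proteins and chemokines lie to the right, with medians of 2.90 to 6.07, and mitotic genes to the left, with a median of −0.88.

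Scaled for transcript length, as TPM, the share of all transcripts scaled to 1 M, computed from the transcript counts, abundant genes among the rises, chosen after their values were seen, were IFITM3, a membrane protein that blocks viral fusion, from 882 ± 32.1 to 3470.0 ± 285 TPM, B2M, from 923 ± 15.1 to 3170.0 ± 473 TPM, and IFI6, from 62.1 ± 7.28 to 2953 ± 362 TPM. The metallothionein MT2A rose from 1352 ± 81.6 to 2800.5 ± 130.0 TPM and the pentraxin PTX3 from 1108 ± 25.2 to 2373 ± 115 TPM. Abundant among the falls were the keratin KRT7, from 1630.3 ± 38.8 to 766 ± 17.0 TPM, the quinone reductase NQO1, from 652 ± 14.2 to 318 ± 15.8 TPM, and the metalloprotease inhibitor TIMP3, from 498 ± 8.24 to 210.3 ± 15.8 TPM.

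The largest falls under the same ranking rule were of genes with unlike known roles. CCN5 (ENSG00000064205.11, chromosome 20 from 44714844 to 44728509), a matricellular protein also called WISP2, went from 5.51, 6.96 and 5.64 CPM to 0.344, 0.642 and 0.612 CPM (log2 fold change −3.49, SE 0.24, adjusted p = 1.6e-09), with KCNK15-AS1 on the opposite strand. SNX22 (ENSG00000157734.14, chromosome 15 from 64151715 to 64157481), a sorting nexin, fell from 5.09, 4.27 and 8.95 CPM to 0.401, 0.571 and 0.734 CPM (log2 fold change −3.41, SE 0.86, adjusted p = 0.0029); PPIB lies on the opposite strand. MAP2K6 (ENSG00000108984.16, chromosome 17 from 69414697 to 69553865), a kinase upstream of p38, fell from 34.6, 32.8 and 28.4 CPM to 5.10, 4.80 and 4.04 CPM (log2 fold change −2.78, SE 0.19, adjusted p = 1.0e-09). For all 3 genes every 24 h library lay below every 0 h library, which the ranking rule required.

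JUP (ENSG00000173801.17, chromosome 17 from 41754604 to 41786931), plakoglobin, which links cadherins to the cytoskeleton, fell from 99.5, 96.8 and 106 CPM to 17.2, 17.3 and 30.4 CPM (log2 fold change −2.22, SE 0.27, adjusted p = 1.7e-06). ABCG2 (ENSG00000118777.12, chromosome 4 from 88090150 to 88231628), a drug efflux pump, fell from 82.6, 87.4 and 83.2 CPM to 21.6, 22.1 and 21.8 CPM (log2 fold change −1.95, SE 0.07, adjusted p = 4.1e-13). In both genes the spread within a time was small beside the drop. The somatostatin receptor SSTR5 fell from 7.15 ± 0.604 to 1.33 ± 0.316 CPM, NT5DC2 from 75.2 ± 4.33 to 16.6 ± 2.46 CPM, the long noncoding RNA LINC01605 from 5.29 ± 0.597 to 0.817 ± 0.234 CPM, METTL7A from 16.6 ± 0.692 to 4.72 ± 0.984 CPM and the matrix protein matrilin 3 (MATN3) from 5.37 ± 1.02 to 1.54 ± 0.378 CPM. SSTR5-AS1 overlaps SSTR5, STAB1 and UQCC5 overlap NT5DC2 and WDR35-DT overlaps MATN3 on the opposite strand. EEF1A1P9, a processed pseudogene of a translation elongation factor, fell from 11.7 ± 2.23 to 3.01 ± 0.312 CPM (log2 fold change −1.96, SE 0.35, adjusted p = 1.4e-04).

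Genes of cell division fell together. Of 45 mitotic genes, all tested, 41 fell and 0 rose, 18 of them more than 2-fold, with a median log2 fold change of −0.88; by adjusted p 25.2% of all genes fell. CCNA2 (cyclin A2), which drives S phase and mitosis, fell from 118, 127 and 124 CPM to 48.4, 46.7 and 48.5 CPM (log2 fold change −1.36, SE 0.08, adjusted p = 1.0e-10). TOP2A, which untangles chromosomes, fell from 489, 464 and 479 CPM to 194, 189 and 200.5 CPM (log2 fold change −1.30, SE 0.07, adjusted p = 6.4e-11). The libraries of the 2 times did not overlap for either gene. NUSAP1, a spindle protein, fell from 64.2 ± 4.55 to 26.9 ± 9.35 CPM, the kinase PBK from 26.1 ± 1.16 to 10.9 ± 0.435 CPM, the mitotic kinase CDK1 from 142 ± 2.65 to 65.1 ± 3.25 CPM (log2 fold change −1.13, SE 0.07, adjusted p = 1.6e-10) and cyclin B1 (CCNB1) from 160.2 ± 4.52 to 79.0 ± 3.17 CPM. MKI67, the proliferation marker Ki-67, fell with a log2 fold change of −0.41. CENPF, ESPL1, INCENP and CDC25A did not pass the test. The motif TTTGAA (either strand), the core of the cell cycle homology region through which many mitotic genes are repressed outside mitosis, was in 28 of 39 promoter windows of this list (71.8%). Over all promoters it was in 9.18%, in genes that rose in 11.2% and in genes that fell in 18.6%. The windows of TOP2A and of CDC20, the latter chosen after its values were seen, show it in capitals.
TOP2A (chr17:40417847-40418146, minus strand): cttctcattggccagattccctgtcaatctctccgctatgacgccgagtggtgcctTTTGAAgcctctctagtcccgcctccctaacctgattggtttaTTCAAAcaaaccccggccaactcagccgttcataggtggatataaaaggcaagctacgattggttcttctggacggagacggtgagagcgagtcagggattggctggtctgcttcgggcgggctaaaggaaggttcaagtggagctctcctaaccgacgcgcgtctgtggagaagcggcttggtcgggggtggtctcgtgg
CDC20 (chr1:43358731-43359030, plus strand): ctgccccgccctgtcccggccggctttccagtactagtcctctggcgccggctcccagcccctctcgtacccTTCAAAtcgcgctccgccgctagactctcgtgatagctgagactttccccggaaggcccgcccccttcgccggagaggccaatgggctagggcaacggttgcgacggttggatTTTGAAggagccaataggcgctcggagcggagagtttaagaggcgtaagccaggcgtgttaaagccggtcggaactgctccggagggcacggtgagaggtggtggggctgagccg

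CDC20, the activator of the anaphase-promoting complex, fell from 165 ± 1.97 to 81.0 ± 6.01 CPM (log2 fold change −1.02, SE 0.09, adjusted p = 5.3e-08). The DNA replication machinery fell less far: of 47 genes 36 fell and 1 rose, none of them more than 2-fold, with a median of −0.47. POLE2 fell from 15.6 ± 1.58 to 8.21 ± 0.543 CPM (log2 fold change −0.92, SE 0.13, adjusted p = 8.7e-06), TK1 from 105 ± 2.31 to 55.9 ± 3.69 CPM, RFC3 from 27.8 ± 0.870 to 16.1 ± 0.691 CPM and the helicase subunit MCM6 from 111 ± 5.13 to 64.3 ± 4.09 CPM (log2 fold change −0.79, SE 0.06, adjusted p = 5.4e-09), and MCM3 was the member that rose (0.16). Of 21 tested G1 cyclins, kinases and inhibitors 11 fell and 2 rose (median −0.17). The inhibitor CDKN2C fell from 12.4 ± 0.621 to 5.97 ± 0.269 CPM, E2F2 from 12.9 ± 0.188 to 6.79 ± 1.10 CPM, SKP2 from 53.02 ± 1.34 to 27.8 ± 2.40 CPM and the inhibitor CDKN1B (p27) from 94.3 ± 3.09 to 53.3 ± 2.29 CPM, while cyclin D1 (CCND1) was at 2409.8 ± 33.9 and 2372 ± 148 CPM (adjusted p = 0.68).

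Lipid synthesis genes were lower. Of 26 tested cholesterol genes 20 fell and 4 rose, with a median of −0.496. Mevalonate kinase (MVK) fell from 53.1 ± 0.384 to 27.7 ± 2.60 CPM and INSIG1, which retains the sterol sensor in the endoplasmic reticulum, from 161 ± 3.66 to 78.1 ± 3.89 CPM (log2 fold change −1.04, SE 0.07, adjusted p = 2.3e-09). The exporters ABCA1 and ABCG1 went the other way and rose, ABCA1 from 16.1 ± 0.304 to 64.0 ± 2.41 CPM (log2 fold change 1.99, SE 0.09, adjusted p = 3.3e-12) and ABCG1 from 1.18 ± 0.166 to 2.28 ± 0.201 CPM. Fatty acid synthesis genes fell in 10 of 15 cases and rose in 1 (median −0.24): ACACA from 143 ± 7.95 to 90.7 ± 8.36 CPM, SCD from 1141 ± 43.4 to 721 ± 45.9 CPM, FASN from 683 ± 43.4 to 529.7 ± 29.8 CPM and ELOVL5 from 217 ± 4.69 to 165 ± 6.69 CPM.

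Energy metabolism changed by small amounts. Of 28 tested glycolysis and hypoxia-response genes 12 fell and 7 rose, none by more than 2-fold (median −0.11). LDHA fell from 2593 ± 63.2 to 1533 ± 95.1 CPM (log2 fold change −0.76, SE 0.05, adjusted p = 1.2e-09), NDRG1 from 79.1 ± 0.945 to 52.4 ± 3.81 CPM and the lactate exporter SLC16A3 from 283 ± 3.99 to 199 ± 7.67 CPM, and hexokinase 2 (HK2) rose from 27.7 ± 1.73 to 45.4 ± 1.75 CPM. Nuclear-encoded subunits of the respiratory chain fell in 23 of 45 cases and rose in 4 (median −0.18), with ATP5F1A from 370.3 ± 1.12 to 260.5 ± 11.4 CPM and log2 fold changes of −0.40, −0.39 and −0.39 for ATP5PB, ATP5MC3 and NDUFA2. Of 33 mitochondrially encoded genes 11 rose and 0 fell (median 0.35). By adjusted p 28.6% of all genes tested rose and 25.2% fell, so the share that rose was near the background. The mitochondrially encoded genes held 1.71 to 2.13% of the counts at 0 h and 2.06 to 2.42% at 24 h, ranges that overlap.

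Targets of NRF2, the factor of the oxidative stress response, fell in 14 of 27 tested cases and rose in 3 (median −0.34). NQO1 fell from 704 ± 25.8 to 345 ± 17.8 CPM (log2 fold change −1.03, SE 0.06, adjusted p = 4.3e-10), transketolase (TKT) from 738 ± 12.1 to 374 ± 22.4 CPM and AKR1B10 from 3.24 ± 0.400 to 1.16 ± 0.378 CPM, while AKR1B1 rose from 324 ± 11.2 to 792 ± 20.8 CPM (log2 fold change 1.29, SE 0.08, adjusted p = 1.9e-10). SLC7A11, which imports cystine for glutathione, fell with a log2 fold change of −0.80 and HMOX1 rose with 0.70. Heat shock genes moved little, 8 of 24 up and 5 down (median 0.07): HSPA1A, HSPA1B and DNAJA1 rose with log2 fold changes of 0.63, 0.59 and 0.62, and HSPA5 (BiP) with 0.44. HSPA1A and HSPA1B are near copies, so their reads cannot be assigned with certainty.

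Of 13 genes of the small RNA pathway, which also handles siRNA, 9 fell and 1 rose (median −0.32). AGO2, the Argonaute that cuts targets, fell from 232, 201 and 208 CPM to 108, 115 and 95.6 CPM (log2 fold change −1.005, SE 0.07, adjusted p = 8.3e-10), and DICER1 from 243, 224 and 233 CPM to 138, 141 and 121 CPM (log2 fold change −0.81, SE 0.06, adjusted p = 8.8e-09). The libraries of the 2 times were apart for both. TNRC6A fell with a log2 fold change of −0.61 and DROSHA, which starts microRNA processing, rose with 0.69.

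Matrix genes did not move as a block. Of 28 tested collagens and structural genes 13 rose and 4 fell (median 0.32): COL12A1 rose from 3.27 ± 0.0828 to 9.26 ± 0.735 CPM, the basement membrane chain COL4A1 from 23.0 ± 1.33 to 53.4 ± 8.45 CPM and LAMB3 from 119 ± 6.45 to 260.4 ± 10.6 CPM. Fibronectin (FN1) rose with a log2 fold change of 0.78. Of 16 tested matrix proteases and inhibitors 4 rose and 5 fell (median −0.16). Among the 16, 2 were tested through 24 h libraries alone and 1 through 0 h libraries alone. MMP9, gelatinase B, was at 0, 0 and 0.135 and then 1.62, 1.78 and 2.01 CPM, a ratio of counts of 39.3, with an exact 95% interval of 20.4 to 86.9. TIMP3 fell from 1007, 999.6 and 1001 CPM to 407, 409 and 458 CPM (log2 fold change −1.24, SE 0.07, adjusted p = 5.6e-11) and MMP16 from 46.9 ± 2.45 to 20.7 ± 1.86 CPM. MMP10 fell from 1.55 ± 0.335 to 0.729 ± 0.182 CPM (adjusted p = 0.034), a call that was lost under limma-voom and without 4 of the 6 siNT libraries in turn (adjusted p from 0.058 to 0.11).

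TGF-β, BMP and Notch genes were balanced, with 14 of 38 tested up, 13 down and a median of −0.01. Among the 38, 2 were tested through 24 h libraries alone. The activin subunit INHBA rose from 27.4 ± 2.32 to 112 ± 11.0 CPM (log2 fold change 2.04, SE 0.09, adjusted p = 2.7e-12) and its antagonist FST from 7.84 ± 0.5005 to 31.1 ± 1.20 CPM, and the Notch ligand DLL1 from 2.53 ± 0.286 to 10.3 ± 2.31 CPM. BMP2 had 0 counts at 0 h and 0.172, 0.339 and 0.315 CPM at 24 h, at least 5.94-fold higher. The inhibitory SMADs fell, SMAD6 from 18.2 ± 1.03 to 6.55 ± 0.329 CPM (log2 fold change −1.48, SE 0.10, adjusted p = 6.0e-10) and SMAD7 from 19.2 ± 1.28 to 8.99 ± 0.887 CPM, as did the Notch targets HES1 and HEY1 (log2 fold changes −1.13 and −1.01), while HES4 rose (1.40).

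Epithelial genes fell in 4 of 8 tested cases and rose in 1 (median −0.72): the keratins KRT7, KRT8 and KRT18 fell with log2 fold changes of −1.13, −0.74 and −0.51, and the mucin MUC1 rose with 1.49. Among the 8, 1 was tested through 24 h libraries alone and 2 through 0 h libraries alone. CD68, a lysosomal protein of the leukocyte list, rose from 34.6 ± 2.26 to 152 ± 21.5 CPM, and LYZ was at 3.22 ± 0.164 and 3.08 ± 0.147 CPM (adjusted p = 0.8). In the fibroblast and smooth muscle list 2 of 12 genes were tested, of which ACTA2 rose from 4.41 ± 0.164 to 10.5 ± 1.71 CPM and TAGLN did not pass the test. ELMO1 was at 2.85, 2.66 and 3.32 CPM at 0 h and 3.38, 2.98 and 3.58 CPM at 24 h, with overlapping libraries (adjusted p = 0.57). Of ELMO1 and its partners 6 of 12 rose and 2 fell (median 0.18), with DOCK4 up from 191 ± 12.2 to 302 ± 7.03 CPM, DOCK1 up with a log2 fold change of 0.38, DOCK3 down from 22.4 ± 0.760 to 13.0 ± 0.885 CPM and RAC3 down with −0.40 (adjusted p = 0.023), a call lost without any 1 of 3 libraries (adjusted p from 0.058 to 0.098).

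Processed pseudogenes, intronless copies of mRNAs, made up 115 of the 450 falls. Of 492 tested 115 fell more than 2-fold (23.4%, against 2.06% of protein-coding genes), 18 rose and the median log2 fold change was −0.60. By the median over copies the parent genes fell less. The 82 ribosomal protein genes had a median of −0.21, with 53 down and 6 up, and their 152 pseudogenes a median of −0.77, with 94 down and 6 up. EEF1A1 had a log2 fold change of −0.25 and its 14 pseudogenes a median of −1.48, and GAPDH −0.18 against −1.70 for 7 pseudogenes. By summed level the gap was smaller in 2 of these families. The EEF1A1 pseudogenes together held 1695.6 to 1732.5 CPM at 0 h and 1229.5 to 1353.7 CPM at 24 h, and EEF1A1 10628 to 10949 and 8314.1 to 9439.4 CPM. The ribosomal protein pseudogenes held 1863.3 to 1994.3 and 1346.8 to 1492.3 CPM, and their parents 53155 to 55916 and 41293 to 46371 CPM. The 7 GAPDH pseudogenes held 11.1 to 15.4 and 3.24 to 5.57 CPM. A read that fits a pseudogene and its parent can be assigned to either, so the levels of these copies are uncertain, and the part of read assignment in their falls was not tested. Without processed pseudogenes 960 genes rose and 335 fell.

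Genes that rose often lay beside each other. Of 738 risen protein-coding genes 209 (28.3%) had a risen gene as the next tested protein-coding gene on their chromosome, and of all 12373 genes with a position 11.3% had one. For the falls the shares were 17 of 255 (6.67%) and 4.03%. The runs of 4 or more risen genes include GBP3, GBP1, GBP2, GBP7, GBP4 and GBP5 (chromosome 1 from 89006679 to 89272860), IFIT2, IFIT3, IFIT1B, IFIT1 and IFIT5 (chromosome 10 from 89283694 to 89421605), SP110, SP140, SP140L and SP100 (chromosome 2 from 230165186 to 230545606), CXCL8, CXCL1, CXCL3 and CXCL2 (chromosome 4 from 73740519 to 74099196), the butyrophilins BTN3A2, BTN2A2, BTN3A1, BTN3A3 and BTN2A1 next to the histone gene H4C8 (chromosome 6 from 26277609 to 26476621) and TAP2, PSMB8, PSMB9 and TAP1 (chromosome 6 from 32813767 to 32859851). Members of a run can share reads where they are recent copies.

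The transcript counts, which divide reads among isoforms and are noisier than gene counts, showed shifts within some genes that rose. The short CFLAR transcript CFLAR-211 held 17.6, 12.0 and 18.5% of the gene's length-scaled counts at 0 h and 35.4, 32.1 and 28.5% at 24 h. For CASP8 the transcript CASP8-211 held 6.30, 4.42 and 5.61% and then 21.7, 21.6 and 14.0%. CASP8-217, annotated as a retained intron, held 8.44, 8.21 and 7.29% and then 17.6, 16.4 and 18.7%. Some other CASP8 transcripts varied widely within 0 h, with CASP8-218 at 25.3, 21.0 and 3.58% and CASP8-220 at 10.0, 21.8 and 32.0%. The shares within CASP8 are therefore uncertain. IFIH1-201, a short form of MDA5, went from 14.1, 16.3 and 9.91% to 3.71, 3.88 and 5.25%, while IFIH1-206 held 74.4 to 85.6% and 78.7 to 86.3%. For CFLAR-211, CASP8-211, CASP8-217 and IFIH1-201 the libraries of the 2 times did not overlap, and no test was made. Other transcripts of the genes read were apart as well, among them CFLAR-201, CASP8-202 and ADAR-229. The share of such transcripts over all transcripts was not computed. By gene level, the 24 h libraries lay wholly above for 32.9% of genes tested and wholly below for 30.8%. For OAS1 the shares of OAS1-207 ranged from 0.620 to 18.8% at 0 h and from 0.0399 to 24.7% at 24 h, so no shift can be read there.

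Past the same thresholds were 1304 rises and 898 falls in Mock cells, and 1170 rises and 558 falls in siELMO1 cells. Of the 978 rises in siNT 755 were also rises in Mock (77.2% of the siNT and 57.9% of the Mock rises), and 654 in siELMO1 (66.9% and 55.9%). Of the 450 falls 274 were also falls in Mock (60.9% and 30.5%) and 166 in siELMO1 (36.9% and 29.7%). The difference between responses was tested as an interaction in the same model. By adjusted p the siNT response was higher than the Mock response for 14.9% of all genes and lower for 16.0%, and higher than the siELMO1 response for 17.8% and lower for 16.7%. Both comparisons use the same 6 siNT libraries. Responses that differed by more than 2-fold numbered 337 (siNT above Mock), 301 (siNT below Mock), 360 (siNT above siELMO1) and 581 (siNT below siELMO1). Of the 978 rises 303 had a lower response in siNT than in Mock and 122 a higher one, and 199 a lower and 205 a higher one than in siELMO1.

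Most inflammatory lists held more members with a lower response in siNT than in Mock than with a higher one. The study proposes that cell death likely lowered the inflammatory transcripts of siNT at 24 h, which was not tested here. That proposal is about levels at 24 h, while a response also depends on the level at 0 h. The study also reports slightly more CXCL8 after non-targeting siRNA than in Mock before poly(I:C). The part of 0 h levels in the differences was not tested. Of 56 antiviral effectors 39 responded less in siNT than in Mock and 0 more, with medians of 2.90 and 3.59, and 31 less and 4 more than in siELMO1 (median 3.45). Of 28 NF-κB genes 20 responded less and 3 more than in Mock (medians 0.89 and 1.42). For HLA class I and antigen processing 17 of 24 were lower and 1 higher (1.74 and 2.36), for cytokines 13 of 23 lower and 0 higher (2.05 and 3.30) and for CXC chemokines 5 of 7 lower and 0 higher (3.36 and 6.53). Other lists were nearly even against Mock: of 13 inflammasome and pyroptosis genes 3 were lower and 2 higher (0.83 and 0.83), of 20 JAK, STAT and SOCS genes 6 lower and 4 higher (0.23 and 0.21) and of 12 leukocyte adhesion molecules 3 lower and 4 higher (0.10 and −0.02). Of 29 ATF4 and amino acid stress genes 22 were lower and 2 higher (0.32 and 1.11). Of 24 death receptor and caspase genes 10 were lower and 2 higher (0.41 and 0.70).

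Among the named genes with more than 9 counts in every group, CXCL1 differed most. In Mock it was at 0.382, 0.702 and 0.766 CPM at 0 h and 128, 112 and 139.6 CPM at 24 h and in siELMO1 at 0.571, 0 and 0.319 and 112, 103 and 145 CPM, against 7.27, 6.84 and 7.99 CPM in siNT at 24 h. The difference in log2 fold change was −4.43 for siNT minus Mock (SE 0.43, adjusted p = 7.0e-07) and, for siNT minus siELMO1, −5.19 (adjusted p = 1.8e-07). IFNB1 had 0 counts at 0 h in Mock and 20.3, 21.3 and 27.4 CPM at 24 h, and in siELMO1 it was at 5.80, 5.51 and 11.6 CPM at 24 h, in each case above all 3 siNT libraries (1.70, 1.43 and 1.91 CPM). CXCL10 was at 28.5, 24.3 and 34.9 CPM in Mock and 25.4, 23.5 and 40.9 CPM in siELMO1 at 24 h, also above all siNT libraries.

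The cell cycle lists moved in opposite directions in siNT and siELMO1. Mitotic genes had a median of −0.88 in siNT, −0.48 in Mock and 0.90 in siELMO1, with 45 of 45 lower in siNT than in siELMO1 and 25 lower and 2 higher than in Mock. For DNA replication the medians were −0.47, −0.32 and 0.86, with 47 of 47 lower than in siELMO1 and 15 lower and 2 higher than in Mock. TOP2A was at 125 ± 6.49 CPM at 0 h and 237 ± 28.4 CPM at 24 h in siELMO1, and at 534 ± 11.1 and 280.3 ± 18.0 CPM in Mock. All siELMO1 libraries were thus below all siNT libraries at 0 h and above them at 24 h for TOP2A. NRF2 targets had medians of −0.34 in siNT, 0.01 in Mock and −0.07 in siELMO1, with 9 lower and 3 higher in siNT than in Mock. Endothelial identity genes went the other way, with 10 of 22 higher and 3 lower in siNT than in Mock (medians 0.11 and −0.31).

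**Figure D5:**
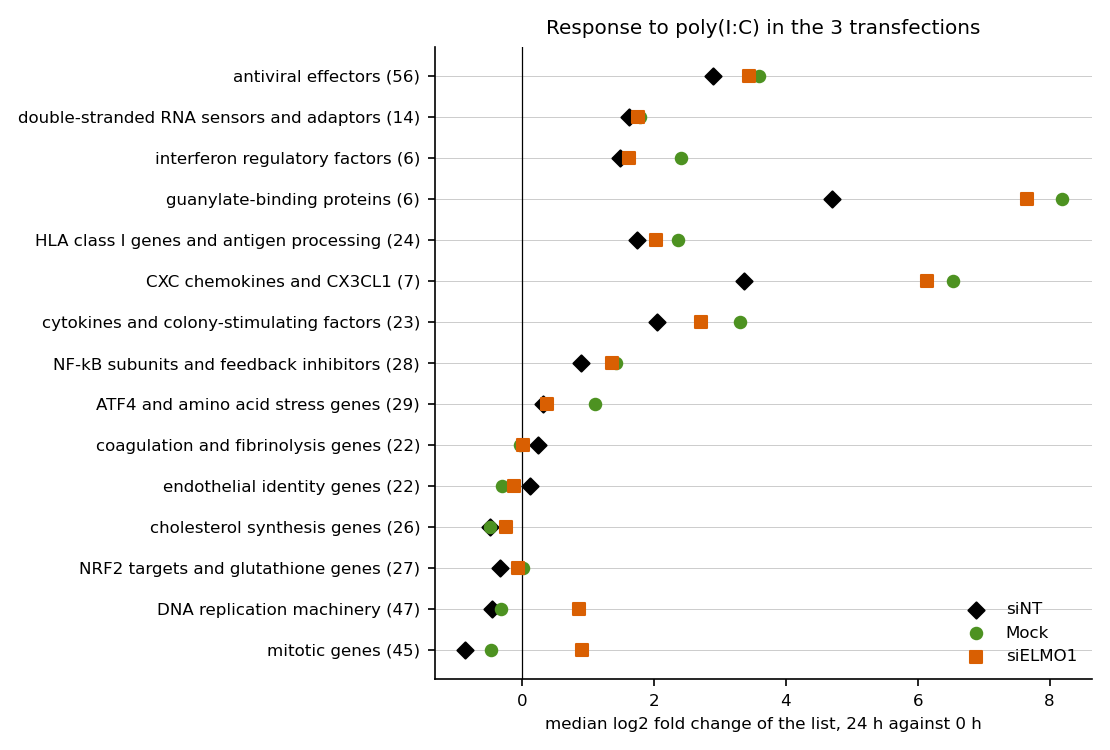
Median log2 fold change from 0 h to 24 h of each gene list in siNT, Mock and siELMO1 cells. For antiviral effectors the medians are 2.90, 3.59 and 3.45, and for mitotic genes they are −0.88, −0.48 and 0.90. The points of guanylate-binding proteins in Mock and siELMO1, 8.19 and 7.66, become 6.02 and 5.24 with genes at 0 counts taken at the limit of 3 counts.

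Some responses in siNT differed from those in both other transfections. SULT1B1 (ENSG00000173597.9, chromosome 4 from 69721167 to 69787961), a sulfotransferase, was at 20.8, 19.8 and 20.7 CPM at 0 h and 211, 202 and 155 CPM at 24 h in siNT (log2 fold change 3.21, SE 0.12, adjusted p = 3.8e-13). In Mock it was at 105 ± 3.34 and 89.9 ± 15.1 CPM and in siELMO1 at 41.1 ± 3.41 and 29.6 ± 1.91 CPM. The siNT level was thus the lowest of the 3 before poly(I:C) and the highest after it, and the difference in log2 fold change was 3.43 against Mock (adjusted p = 2.1e-10) and 3.69 against siELMO1 (adjusted p = 7.4e-11). ABCG2, which fell in siNT, started higher there: it was at 22.6 ± 1.83 and 15.3 ± 0.922 CPM in Mock and 10.4 ± 1.12 and 9.74 ± 0.448 CPM in siELMO1, while siNT went from 84.4 ± 2.59 to 21.8 ± 0.245 CPM. The response differed by −1.39 from Mock (adjusted p = 3.1e-08) and by −1.85 from siELMO1 (adjusted p = 6.1e-10). The activator PLAT was at 108 ± 2.85 and 94.6 ± 5.98 CPM in Mock and 185 ± 7.54 and 165 ± 21.5 CPM in siELMO1, and it rose in siNT, a difference of 1.73 (adjusted p = 1.3e-08) from Mock and of 1.70 from siELMO1 (adjusted p = 5.4e-09).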

How the data were processed

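RNA of EA.hy926 cells was sequenced as stranded, poly(A)-selected paired-end libraries. The authors aligned the reads to GRCh38 with STAR and, with StringTie and its count script on GENCODE v44, made the deposited matrices of estimated counts (expected counts) per gene and per transcript, which are whole numbers and not normalized. The read length given to that script and the strand setting are not given in the sources used here, but the count totals exceed the paired-end reads per sample that the study's methods state, so 1 read pair stands for more than 1 count. Columns were matched to samples through the labels.

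Totals were 40.4 to 73.9 M counts per library and TMM factors 0.958 to 1.06. The filter kept genes with 100 or more counts over all libraries and 1 CPM or more in at least 1 of them, as in the study. One edgeR 4.0.16 quasi-likelihood fit (R 4.3.3, common biological coefficient of variation 12.2%) covered all 18 libraries, with the group as its term. SE is the log2 fold change divided by the square root of F. A fold against libraries at 0 was computed against 3 counts a library, and with 1 to 9 counts in a group the ratio has an exact 95% binomial interval. Medians of the lists in siNT were the same to 2 decimals with such genes at their bound. TPM and transcript shares used the transcript counts divided by annotated length. Promoters are from RefSeq (GRCh38.p14); 62700 gene identifiers were found in the annotation, and coordinates are 1-based. The genes named are those the study names for poly(I:C), the 12 largest rises and 12 largest falls with at least 5 CPM, up to 4 members of each of 40 lists (939 entries, 822 tested), members whose role a list turns on, and the 5 largest differences in each direction between responses. A few genes that this rule names are not reported here. The members, lists and rules were chosen with earlier results of these data known. The script was tested on simulated data. Alternatives were DESeq2 1.42.0, limma-voom (limma 3.58.1), other scalings and filters, the replicate number as a block, other sets of genes or libraries, and each library left out. Same-numbered siNT libraries at 0 h and 24 h had residual correlations across genes of 0.000396, −0.0522 and 0.0893, so no pairing was used there. Same-numbered Mock and siNT libraries at 24 h had 0.166, 0.232 and 0.192 and at 0 h 0.114, 0.0641 and 0.0417. Genes are not independent replicates. The p-values are two-sided.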

Additional observations from a re-analysis of the deposited data

Results flagged for a closer look

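These results differed between siNT and another transfection by the test of the difference itself (the interaction in edgeR's quasi-likelihood fit, adjusted over 15167 genes). They are the largest differences in each direction, so their sizes come from a selection, and the 2 sets of comparisons share the siNT libraries. For siNT minus Mock the difference in log2 fold change was −4.43 for CXCL1 and, for ADAP1, −3.73. ADAP1, an Arf GTPase-activating protein, was at 2.54, 2.25 and 4.09 CPM at 24 h in siNT and 17.0, 16.3 and 19.5 CPM in Mock. Higher in siNT than in Mock were the responses of SULT1B1 (3.43), PRPF40B (2.27), the proteoglycan SDC1 (2.20), the actin regulator MICAL2 (2.11) and the keratin KRT15 (2.11). SDC1 was at 61.4, 58.7 and 60.8 CPM and then 93.2, 92.9 and 78.7 CPM in siNT and at 170.3, 166 and 165 and then 56.2, 55.3 and 47.99 CPM in Mock, so it rose in the former and fell in the latter. MICAL2 was at 20.4 ± 0.875 and 23.6 ± 1.24 CPM in siNT and at 64.7 ± 0.5004 and 17.3 ± 2.93 CPM in Mock. KRT15 was at 20.3 ± 1.48 and 24.0 ± 0.544 CPM in siNT and at 21.1 ± 1.82 and 5.78 ± 0.849 CPM in Mock. PRPF40B was at 15.4, 3.04 and 3.03 CPM in the 3 Mock libraries at 0 h, of which the first stands apart, and at 1.78, 1.95 and 2.06 CPM in siNT.

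For genes with a group of 9 counts or fewer the levels are given in place of a fold. TNFSF13B was at 0.0895, 0.213 and 0.224 CPM at 0 h and 10.2, 7.30 and 16.7 CPM at 24 h in siNT, against 0 counts at 0 h in Mock and siELMO1 and 22.1, 19.99 and 26.7 and 17.6, 15.5 and 16.7 CPM at 24 h (adjusted p = 0.00044 against Mock and 0.0016 against siELMO1). TNFAIP6, a hyaluronan-binding protein, was at 0.553, 0.428 and 0.559 CPM at 24 h in siNT and 6.16, 6.58 and 8.72 CPM in Mock (adjusted p = 0.033), and ACOD1 at 2.94, 3.25 and 3.62 and 56.6, 57.0 and 57.8 CPM (adjusted p = 0.038). Without siNT 0 h replicate 3, the library that held the TNFAIP6 and ACOD1 counts at 0 h, the adjusted p was 1.0 and 0.84.

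Against siELMO1 the difference for CXCL1 was −5.19, and the responses of SULT1B1 (3.69), NEXN (2.91), PTPN22 (2.19), the pseudogene PPP1R14BP3 (1.95) and MT-ND4L (1.93) were higher. NEXN, an actin-binding protein, was at 1.48, 1.77 and 1.69 CPM and then 9.56, 11.5 and 16.2 CPM in siNT and at 3.45, 8.35 and 6.40 and then 5.54, 5.98 and 6.51 CPM in siELMO1. MT-ND4L, a mitochondrially encoded subunit of complex I, was at 258, 803 and 766 CPM in siELMO1 at 0 h, where the first library stands apart. GBP5 was at 41.1, 41.0 and 55.8 CPM at 24 h in siELMO1 and 18.6, 16.3 and 25.9 CPM in siNT (adjusted p = 0.016), AIM2 at 8.88, 8.34 and 9.74 and 5.04, 3.69 and 8.29 CPM (adjusted p = 0.035) and the transporter SLC15A3 at 44.8, 41.6 and 48.2 and 29.3, 27.5 and 41.2 CPM (adjusted p = 0.0013). For SLC15A3, GBP5 and AIM2 the 0 h libraries of siELMO1 held 0 counts or close to it.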

How the results depend on the processing

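By adjusted p alone, without the fold threshold, 4333 genes were higher and 3828 lower at 24 h. With the genes that overlap a gene on the opposite strand left out, which was chosen after seeing the data and leaves 6037 tested genes, 435 were higher and 215 lower. Under every other alternative the counts stayed within 1.5 times of 978 and 450. With the replicate block 974 genes were higher and 451 lower in siNT, and the responses that differed numbered 334 (siNT above Mock), 305 (siNT below Mock), 359 (siNT above siELMO1) and 591 (siNT below siELMO1). With 1 library left out in turn the rises ran from 916 (without siNT 24 h replicate 3) to 1025 (without siNT 24 h replicate 1) and the falls from 403 (without siNT 0 h replicate 2) to 445 (without siNT 24 h replicate 1). Responses higher in siNT than in Mock then ran from 298 to 371 and lower ones from 257 to 349, and against siELMO1 from 320 to 434 and from 541 to 685. Of 165 named genes with 2638 alternative values, 160 kept their call and 5 lost it under at least 1 alternative (USP41, TNF, KDR, MMP10 and RAC3), and none changed direction. For the named differences from Mock, PRPF40B was lost under limma-voom (adjusted p = 0.10), and TNFAIP6 and ACOD1 with no filter (0.058 and 0.063) and without single libraries. For those from siELMO1, TNFSF13B, GBP5 and AIM2 were lost under limma-voom (0.058, 0.097 and 0.28) and AIM2 and GBP5 also without single libraries. The cause was not tested. The median of all genes moved from 0.01 to between −0.03 and 0.02 (log2) over the scalings and filters. Depth limits genes at or under 3 counts a library.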

Other observations

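Some gene groups outside the lists also moved. Of 21 tested replication-dependent histone genes, whose mRNAs normally end without a poly(A) tail, 13 rose and 2 fell by adjusted p in siNT (median log2 fold change 0.81, against 0.98 in Mock and 0.70 in siELMO1). Their summed level was 36.6 to 42.3 CPM in the 3 libraries at 0 h and 72.7 to 75.8 CPM at 24 h. Long noncoding RNAs rose more than 2-fold in 9.67% of 1862 cases and fell in 3.17%, against 5.96% and 2.06% of 12386 protein-coding genes. ESM1, the proteoglycan endocan of activated endothelium, chosen after its values were seen, was at 151 ± 3.71 TPM at 0 h and 968 ± 39.2 TPM at 24 h. A run of risen genes on chromosome 12 from 10226058 to 10454685 held KLRD1 and the natural killer receptor genes KLRC3, KLRC2 and KLRC1, which share sequence, so their counts are uncertain. For the mitochondrially encoded genes the medians were 0.35 in siNT, 0.27 in Mock and −0.76 in siELMO1, and 2 siELMO1 libraries at 0 h held 3.95 and 4.02% of their counts in these genes against 1.86% in the third.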
